A study of Mus musculus with 2 samples.

Results

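The genes described here are 10 regulators of dendritic cell (DC) lineages, Irf8, Irf4, Batf3, Zbtb46, Id2, Flt3, Tcf4, Spib, Relb and Runx2, taken by name from a table of 17232 genes. All 10 were present in the table. Each was followed as unique molecular identifiers (UMIs, single captured transcripts) through the DC, monocyte and macrophage groups of tumor-infiltrating immune cells.

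The cells came from B16-OVA melanomas, a mouse melanoma line that carries ovalbumin, harvested on day 14 after challenge. Hosts were Maoa WT mice or Maoa KO mice, which carry the 129S-Maoa tm1Shih/J allele, a hypomorphic change in the whole body of an enzyme that degrades monoamines, after backcrossing to C57BL/6J. The study states female mice of 8 to 12 weeks for experiments not described otherwise. For each genotype, 10 tumors were pooled, live CD45.2+ cells were sorted and 10000 cells were loaded into 1 droplet library that counts transcript 3′ ends. With 1 library per genotype there is no replicate, so no test, standard error or p-value is given. Each level is a sum of UMIs over the cells of a group per 1000000 UMIs of that group (CPM, counts scaled to that total), with an exact 95% Poisson interval. Shares of cells have exact binomial (Clopper-Pearson) intervals, and log2 ratios have intervals from the exact binomial split of the 2 counts. These intervals cover counting error only, and cells of 1 library are not replicates of a genotype.

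In all, 2392 cells with 28801253 UMIs carried the WT label and 2630 cells with 23702018 UMIs the KO label, with medians of 9887.5 and 6945.5 UMIs per cell. Maoa itself was found in 6 cells under the WT label (7 UMIs, 0.243 CPM) and in 14 cells under the KO label (15 UMIs, 0.633 CPM), so its transcript was not lower under the KO label and does not check the labels. Which part of the transcript the allele alters is not given in the sources used here. Between the libraries, 13 barcode sequences were shared. S100a8, a neutrophil and monocyte gene, stood at 178 CPM over all cells of the library labelled WT and 35.1 CPM over all cells labelled KO. In T cells, which should lack it, it stood at 114 and 8.17 CPM.

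Dendritic cells arise from bone marrow progenitors that carry the receptor tyrosine kinase Flt3, and branch into conventional DC type 1 (cDC1), which cross-present antigen to CD8 T cells, further conventional DC, and plasmacytoid DC (pDC), which are known for type I interferon. The cDC1 branch is known to need Irf8, Batf3 and Id2, whereas the pDC branch depends on the E protein Tcf4, with Spib and Runx2 acting beside it. Id2 binds E proteins and blocks their contact with DNA, so that Id2 and Tcf4 are regarded as opposing arms of this choice, while Irf4, Zbtb46 and Relb are linked to other conventional or mature DC.

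Cells were clustered with the 10 regulators removed from the variable genes, and no regulator was used as a marker of any group. Groups were named from marker lists, by a rule set after the clusters had been seen. cDC1-like cells numbered 20 in the library labelled WT and 59 in that labelled KO. Their 12 markers, with Cd24a, Xcr1 and Wdfy4 among the leading genes, summed to 4911 and 4495 CPM. Cd209a-positive DC-like cells, 75 and 163, carried all 9 of their markers, with Cd209a at 704 and 1264 CPM. Mature DC-like cells, 26 and 41, had Ccr7 at 1862 and 1876 CPM, and pDC-like cells, 50 and 73, had Siglech at 1377 and 1326 CPM, but also Cd209a at 163 and 183 CPM. Monocytes (108 and 212 cells), nonclassical monocytes (92 and 92) and macrophages (143 and 130) were the comparison groups. Macrophages were made of 2 clusters, with 119 and 81 cells and with 24 and 49 cells. A first classing named the smaller one melanoma, although all 13 macrophage markers were detected in it. A further 3 clusters, of 317, 208 and 186 cells, scored highest for macrophage markers but stayed unnamed. Each had fewer than 2 of these markers among its 10 leading genes. C1qa in macrophages was 3362 and 3889 CPM. In the text below these names stand for the "like" groups. Since clustering uses expression, a level set between groups is a description. Fewer UMIs per cell and a different cell mixture within a group cannot be told apart in a group sum.

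No doublet caller was run. A cell was counted as mixed when it held 3 or more UMIs of Cd3d, Cd3e and Cd3g together with 5 or more UMIs from a set of 8 myeloid genes. They made up 10 of 79 cDC1, 78 of 238 Cd209a-positive DC, 16 of 67 mature DC and 15 of 123 pDC. Mixed pDC had a median of 28715 UMIs against 7167.5 in the other pDC. Levels in DC groups that are printed and moved by over 1.5 times without the mixed cells are given both ways in the text.

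**Figure D1:**
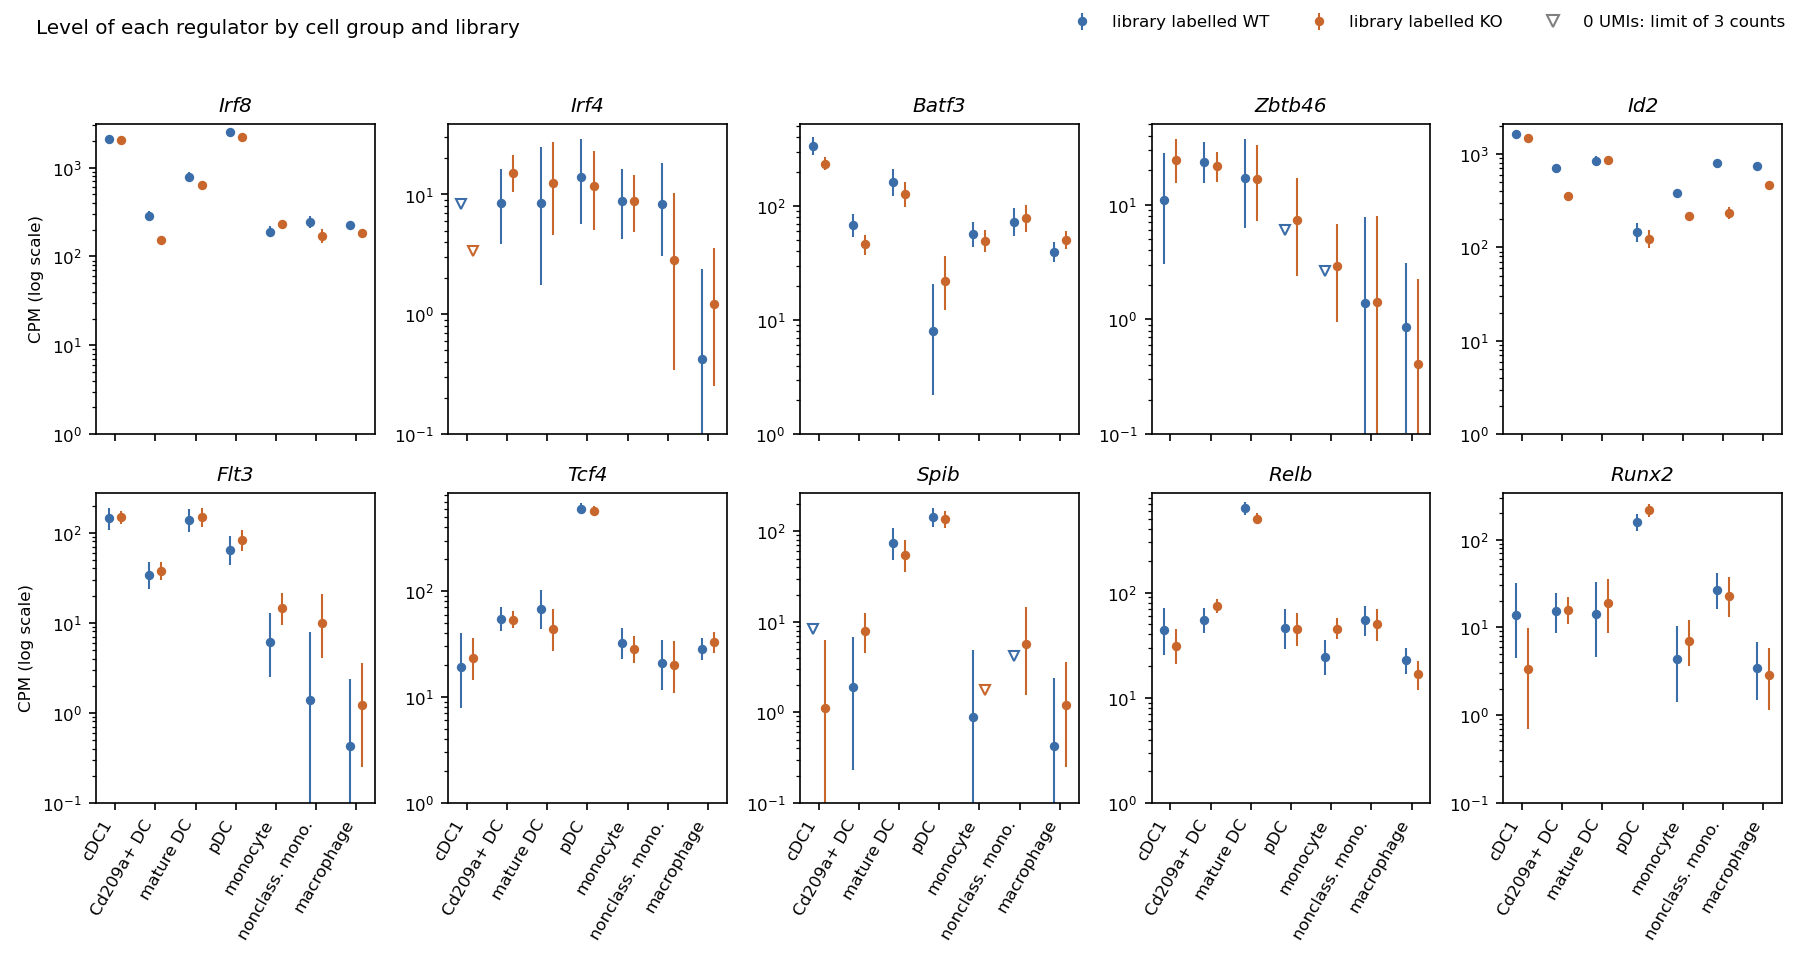
Level of each regulator in CPM on a log axis for 7 cell groups, with the libraries labelled WT and KO side by side. Points are sums over the cells of a group, bars are 95% Poisson intervals cut at the axis, and triangles mark the limit of 3 counts where no UMI was seen. Of these groups, Irf8 was highest in pDC and cDC1, Tcf4 and Runx2 in pDC, and Relb in mature DC, in both libraries.

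Irf8, an interferon regulatory factor, lies at chr8:120736358-120756694 (GRCm38, plus strand). Its level in cDC1 was 2097 CPM (95% interval 1950 to 2252) under the WT label and 2022 CPM (1930 to 2118) under the KO label. In pDC it was 2497 CPM (2360 to 2640) and 2187 CPM (2078 to 2301). Both groups stood far above all others in both libraries, and every cDC1 and every pDC held a UMI of Irf8. pDC were above cDC1 in the library labelled WT without overlap of the intervals, but overlapped them in the library labelled KO. Mature DC held 792 and 634 CPM, Cd209a-positive DC 288 and 154 CPM, monocytes 191 and 230 CPM, nonclassical monocytes 243 and 170 CPM, and macrophages 227 and 186 CPM. Over macrophages, the log2 ratio of Irf8 was 3.20 (3.04 to 3.37) and 3.44 (3.30 to 3.60) in cDC1, and 3.46 (3.31 to 3.61) and 3.56 (3.41 to 3.71) in pDC. Per cell, cDC1 ranged from 10 to 66 UMIs with a median of 38.5 in the library labelled WT, and from 1 to 71 with a median of 28.0 in the library labelled KO. Irf8 was therefore present in cDC1 and pDC as whole populations. T cells also carried Irf8, at 200 and 134 CPM.

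Batf3, a basic leucine zipper partner of Irf8 that sustains Irf8 expression in cDC1, lies at chr1:191097847-191108945 (plus strand). cDC1 held 335 CPM (278 to 400) and 236 CPM (205 to 270) in the libraries labelled WT and KO. Mature DC came next with 162 CPM (123 to 210) and 127 CPM (97.4 to 164). cDC1 intervals did not overlap those of any other group in either library. Cd209a-positive DC (68.2 and 46.0 CPM), nonclassical monocytes (72.7 and 78.5), monocytes (57.2 and 49.6) and macrophages (39.7 and 50.8) formed a lower band with overlapping neighbours. Relative to macrophages, Batf3 in cDC1 had log2 ratios of 3.07 (2.67 to 3.48) and 2.21 (1.89 to 2.54). Irf8 and Batf3 were found together in 19 of 20 cDC1 of the library labelled WT and 56 of 59 labelled KO. In pDC, where Irf8 was as high, the pair was found in 3 of 50 and 5 of 73 cells. T cells, some of which are known to use Batf3, had a UMI of it in 2.89% and 2.15% of cells, at median depths of 9945 and 4867 UMIs. In cDC1 it was found in 19 of 20 and 56 of 59 cells at medians of 18478 and 14991 UMIs. After thinning every cell to 3700 UMIs it was found in 12 of 20 and 30 of 59 cDC1, with none left out, against 1.59% and 0.925% of T cells, with 32 and 250 shallower T cells left out.

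The stretches around the starts of Irf8 and Batf3 are shown because both genes were highest or next to highest in cDC1 and both held letters that no other searched regulator held. Windows of 250 bases before and 50 after the RefSeq start (GRCm38.p6) were searched for 8 of the 10 regulators. None was found for Relb, and Tcf4 was left out before the search. Capitals mark TTCNNNGAA, the letters of an interferon-gamma activated site, which read the same on both strands. Irf8 (chr8:120736108-120736407, plus strand) held it at bases 80 and 98 of its window, and Batf3 (chr1:191098164-191098463, plus strand) at base 12.
Irf8: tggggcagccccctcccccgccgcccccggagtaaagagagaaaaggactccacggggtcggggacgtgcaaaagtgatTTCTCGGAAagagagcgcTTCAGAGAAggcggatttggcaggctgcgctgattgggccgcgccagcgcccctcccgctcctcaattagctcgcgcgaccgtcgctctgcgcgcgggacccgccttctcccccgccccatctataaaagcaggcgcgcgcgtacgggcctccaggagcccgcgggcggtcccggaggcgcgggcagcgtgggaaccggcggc
Batf3: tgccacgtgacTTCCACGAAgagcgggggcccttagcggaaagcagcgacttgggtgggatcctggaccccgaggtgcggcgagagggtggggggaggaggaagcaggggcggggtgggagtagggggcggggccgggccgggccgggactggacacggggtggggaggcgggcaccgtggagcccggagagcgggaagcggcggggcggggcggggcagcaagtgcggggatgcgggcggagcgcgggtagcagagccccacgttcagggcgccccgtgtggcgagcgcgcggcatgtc
Of 32851 promoter windows of the same length, 8.30% held these letters. None of the other 6 regulators searched held them, and neither did a further Irf8 window. A match is a run of letters and not a shown binding site.

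Irf4, the factor known for Cd209a-type conventional DC and for lymphocytes, lies at chr13:30749226-30766976 (plus strand) and was sparse everywhere. It had no UMI in 79 cDC1, which allows up to 8.30 CPM in the library labelled WT and 3.35 CPM in the library labelled KO. Cd209a-positive DC held 9 UMIs in 75 cells (8.53 CPM, 3.90 to 16.2) and 33 UMIs in 163 cells (15.2 CPM, 10.5 to 21.3). pDC held 14.1 and 11.7 CPM, and mature DC 8.52 and 12.5 CPM. These groups could not be ordered, since all their intervals overlapped. Macrophages held 1 and 3 UMIs, so the log2 ratio of Cd209a-positive DC over macrophages, 3.81 (1.47 to 9.77) and 3.44 (1.97 to 5.99), rests on very few counts. A UMI of Irf4 was found in 9 of 75 and 26 of 163 Cd209a-positive DC, against 0.699% and 2.31% of macrophages at greater depth. Irf4 without Irf8 was seen in 1 of 75 and 12 of 163 Cd209a-positive DC. Every pDC held a UMI of Irf8, so this pattern could not occur there.

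Id2, the inhibitor of E proteins (chr12:25093799-25097140, minus strand), was widely present. In cDC1 it was 1657 CPM (1527 to 1795) and 1473 CPM (1395 to 1555), and every cDC1 held it. Mature DC held 852 and 856 CPM, Cd209a-positive DC 714 and 354 CPM, nonclassical monocytes 792 and 235 CPM, macrophages 746 and 471 CPM, and monocytes 386 and 216 CPM. pDC were lowest of the 7 groups in both libraries, with 147 CPM (115 to 184) and 124 CPM (99.1 to 153), or 61.0 and 15.3 CPM without the mixed cells. The log2 ratio over macrophages was 1.15 (1.02 to 1.29) and 1.65 (1.53 to 1.76) in cDC1, and -2.34 (-2.71 to -2.01) and -1.92 (-2.26 to -1.60) in pDC.

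Tcf4, the E protein that maintains pDC identity, ran the other way. pDC held 602 CPM (536 to 674) and 574 CPM (519 to 633). No other of the 7 groups exceeded 68.1 CPM in the library labelled WT or 53.9 CPM in the library labelled KO. The latter value is that of Cd209a-positive DC, which held 31.4 CPM without the mixed cells. cDC1 held 19.4 CPM (7.79 to 39.9) and 23.5 CPM (14.5 to 35.8), near macrophages at 28.6 and 32.9 CPM. Tcf4 in pDC over macrophages gave log2 ratios of 4.39 (4.01 to 4.80) and 4.12 (3.78 to 4.49). A UMI of Tcf4 was found in 98.0% and 91.8% of pDC, and in 86.0% and 79.5% after thinning. In T cells the share was 12.6% and 3.95%.

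The 2 genes were also counted within single cells. Tcf4 without Id2 was the pattern of 34 of 50 pDC labelled WT (68.0%, 53.3 to 80.5) and 58 of 73 labelled KO (79.5%, 68.4 to 88.0). No cDC1 could show it, since every cDC1 held Id2. Id2 without Tcf4 was the pattern of 14 of 20 and 42 of 59 cDC1, but of 1 of 50 and 5 of 73 pDC. Both genes were found in 6 of 20 and 17 of 59 cDC1, in 15 of 50 and 9 of 73 pDC, and in 31 of 75 and 43 of 163 Cd209a-positive DC. These counts include mixed cells. Without them, Id2 was found in 11 of 43 and 7 of 65 pDC. Tcf4 was then found in 19 of 48 and 33 of 112 Cd209a-positive DC. pDC were less deeply sampled than cDC1 (medians of 7518 and 7081 UMIs), and a gene without a UMI in a cell may still be expressed there.

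**Figure D2:**
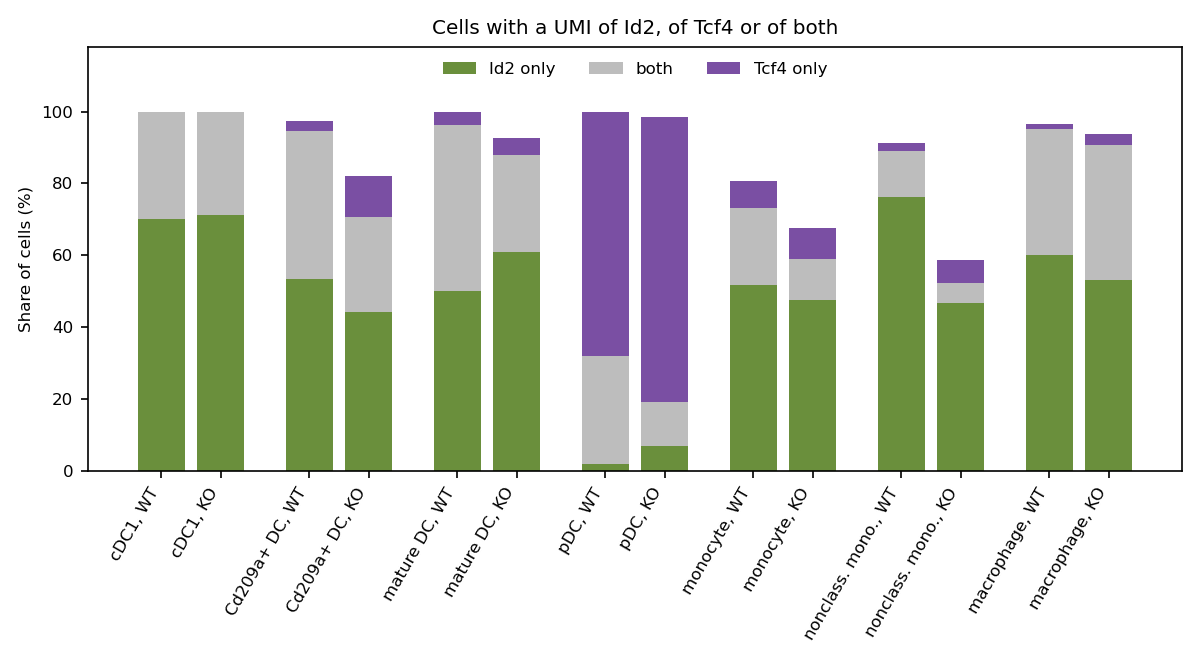
Share of cells, in percent, with a UMI of Id2 only, of Tcf4 only or of both, stacked for 7 cell groups in each library. The space above a bar up to 100 is cells with neither, and mixed cells are included. Tcf4 without Id2 filled 68.0% and 79.5% of pDC and 0% of cDC1.

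Spib, an Ets family factor of pDC and B cells (chr7:44525993-44532071, minus strand), was 145 CPM (113 to 182) and 136 CPM (110 to 166) in pDC. It was also present in mature DC at 73.8 CPM (48.2 to 108) and 54.3 CPM (35.4 to 79.5), below pDC in both libraries. cDC1 held 0 and 1 UMIs, and macrophages 1 and 3 UMIs. Log2 ratios of pDC over macrophages, 7.83 (5.88 to 13.7) and 6.59 (5.21 to 9.10), have wide intervals for that reason. T cells, which should lack Spib, had a UMI of it in 0.192% and 0.538% of cells, against 30 of 50 and 46 of 73 pDC and 38.5% and 36.6% of mature DC.

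Runx2 (chr17:44495987-44814797, minus strand), a Runt factor known for the exit of pDC from bone marrow, was 159 CPM (126 to 198) and 215 CPM (181 to 252) in pDC. The other 6 groups held at most 26.6 CPM, the level of nonclassical monocytes labelled WT. Macrophages held 3.41 and 2.84 CPM, and the log2 ratio of pDC over them was 5.46 (4.49 to 6.80) and 6.14 (5.16 to 7.58). T cells, which use Runx2, held 34.9 and 28.1 CPM. Tcf4, Spib and Runx2 were all found in 24 of 50 pDC labelled WT (48.0%, 33.7 to 62.6) and 31 of 73 labelled KO (42.5%, 31.0 to 54.6). The 3 genes were all found in no cDC1, and in 0 or 1 cells of Cd209a-positive and of mature DC per library.

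The windows of Spib and Runx2 are shown because both genes were, like Tcf4, highest in pDC among the 7 named groups, whose protein binds E-box letters. Capitals mark CANNTG, the E-box letters, which read the same on both strands. Spib (chr7:44532022-44532321, minus strand) held 2, at bases 86 and 115, and Runx2 (chr17:44814578-44814877, minus strand) held 2, at bases 173 and 286.
Spib: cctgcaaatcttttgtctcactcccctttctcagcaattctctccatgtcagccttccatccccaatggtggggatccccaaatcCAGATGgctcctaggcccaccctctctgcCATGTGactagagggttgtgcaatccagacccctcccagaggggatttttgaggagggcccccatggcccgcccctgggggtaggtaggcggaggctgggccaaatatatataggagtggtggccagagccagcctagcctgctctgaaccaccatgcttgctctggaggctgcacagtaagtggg
Runx2: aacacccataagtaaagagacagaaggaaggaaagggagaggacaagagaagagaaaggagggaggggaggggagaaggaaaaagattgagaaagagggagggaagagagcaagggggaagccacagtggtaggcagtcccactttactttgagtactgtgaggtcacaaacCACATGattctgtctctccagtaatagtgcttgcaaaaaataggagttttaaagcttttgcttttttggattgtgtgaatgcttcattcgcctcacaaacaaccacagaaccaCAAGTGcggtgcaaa
E-box letters were in 72.3% of all windows, so their presence does not set these genes apart. Zbtb46, which was not high in pDC, held 6. Runx2 also held 5 matches, over both strands, to TGNGGT, the core letters bound by Runx factors, which were in 45.8% of all windows, and 3 of these 5 overlap E-box letters.

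Leaving out the mixed cells moved levels in pDC in both directions. Batf3 had 4 UMIs in pDC labelled WT and 15 in pDC labelled KO, and all 19 lay in mixed cells. Without the mixed cells Batf3 had no UMI in pDC of either library. Id2 in pDC went from 73 to 20 UMIs (147 to 61.0 CPM) and from 85 to 7 UMIs (124 to 15.3 CPM). Relb went from 46.2 to 30.5 CPM and from 45.3 to 32.7 CPM. The other regulators with a UMI left, apart from Irf4, were higher without these cells. Irf8 stood at 3554 and 3049 CPM, Tcf4 at 845 and 832 CPM, Spib at 214 and 198 CPM, Runx2 at 223 and 283 CPM and Flt3 at 94.6 and 100.2 CPM. Irf4, with 4 and 6 UMIs left, stood at 12.2 and 13.1 CPM. The levels of Id2, Batf3, Relb and, in the library labelled KO, Zbtb46 given for pDC thus include mixed cells. T cell markers summed to 532 and 667 CPM in pDC, against 3795 and 3637 CPM in T cells.

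**Figure D3:**
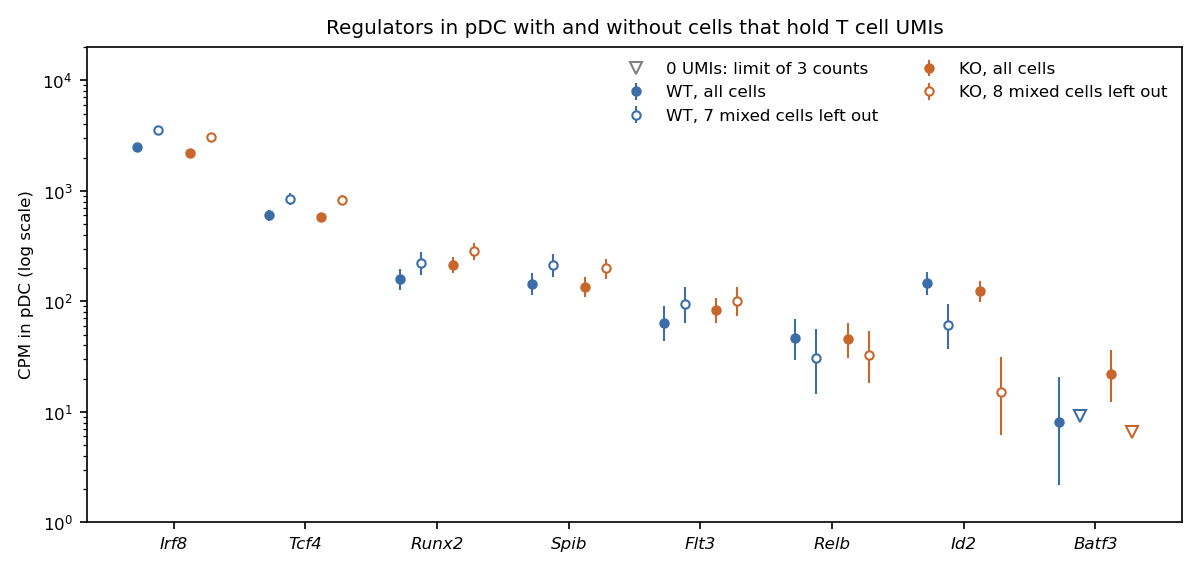
CPM of 8 regulators in pDC, on a log axis, for all pDC (filled) and without the cells that also hold T cell and myeloid UMIs (open), in each library. Bars are 95% Poisson intervals and triangles mark the limit of 3 counts. Batf3 had no UMI without these cells, and Id2 was 61.0 and 15.3 CPM.

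Flt3, the receptor for the growth factor that DC progenitors need (chr5:147330741-147400489, minus strand), separated the DC groups from monocytes and macrophages. cDC1 held 144 CPM (107 to 189) and 149 CPM (124 to 176), and mature DC 139 CPM (103 to 184) and 148 CPM (116 to 187). pDC held 64.2 and 83.2 CPM, and Cd209a-positive DC 34.1 and 37.8 CPM. Levels of cDC1 and mature DC overlapped in both libraries. Cd209a-positive DC had the lowest level of the 4 DC groups, with an interval that overlapped that of pDC in the library labelled WT and lay below it in the library labelled KO. Monocytes held 6.15 CPM (2.47 to 12.7) and 14.6 CPM (9.44 to 21.5). Macrophages had 1 UMI in 143 cells and 3 UMIs in 130 cells. Log2 ratios over macrophages were 7.83 (5.85 to 13.7) and 6.71 (5.35 to 9.22) in cDC1, and 5.76 (3.75 to 11.7) and 4.74 (3.35 to 7.26) in Cd209a-positive DC. Flt3 UMIs were in 0.481% and 0.987% of T cells, against 18 of 20 and 50 of 59 cDC1 and 34.7% and 27.0% of Cd209a-positive DC. Thinning left 4 of 20 and 24 of 59 cDC1 with a UMI, against 0.298% and 0.462% of T cells. Of all Flt3 UMIs, 77.5% and 72.2% lay in the 4 DC groups, which held 7.87% and 17.9% of all UMIs.

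Zbtb46, a zinc finger factor that marks conventional DC rather than pDC or monocytes (chr2:181387762-181459426, minus strand), was low but followed that outline. Cd209a-positive DC held 23.7 CPM (15.3 to 35.0) and 21.6 CPM (15.9 to 28.8), cDC1 11.1 CPM (3.02 to 28.3) and 24.6 CPM (15.4 to 37.2), and mature DC 17.0 and 16.7 CPM. These 3 groups overlapped in both libraries. pDC had no UMI in the library labelled WT, which allows up to 6.02 CPM, and 5 UMIs (7.30 CPM, 2.37 to 17.0) in the library labelled KO. All 5 lay in mixed cells, and without these cells pDC of both libraries had no UMI. In mature DC labelled WT, Zbtb46 went from 6 to 2 UMIs (17.0 to 9.04 CPM) without the mixed cells. Monocytes held 0 and 5 UMIs, and macrophages 2 and 1. For Cd209a-positive DC over macrophages the log2 ratio was 4.50 (2.79 to 7.92) and 5.17 (3.19 to 11.1). T cells had a UMI of Zbtb46 in 1.64% and 1.35% of cells, against 30.7% and 23.9% of Cd209a-positive DC.

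Relb (chr7:19606217-19629438, minus strand), the NF-kappaB subunit of the alternative pathway that accompanies DC maturation, was highest in mature DC. It stood there at 633 CPM (553 to 722) and 507 CPM (445 to 575), and every mature DC held at least 1 UMI. The next levels were 55.0 CPM (41.7 to 71.0) in Cd209a-positive DC labelled WT and 75.1 CPM (64.0 to 87.5) in those labelled KO. cDC1 held 44.3 and 31.3 CPM, pDC 46.2 and 45.3 CPM (30.5 and 32.7 CPM without the mixed cells), and macrophages 22.6 and 16.7 CPM. Mature DC over macrophages gave log2 ratios of 4.80 (4.37 to 5.27) and 4.91 (4.45 to 5.44). At least 3 UMIs of Relb were found in 25 of 26 and 33 of 41 mature DC, but in 9 of 75 and 20 of 163 Cd209a-positive DC and in 2 of 50 and 2 of 73 pDC.

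The further NF-kappaB genes went with Relb in mature DC. Of 13 listed, 12 had at least 50 UMIs over the 2 groups in each library, and 10 were at least 2-fold above macrophages in both libraries. Traf1, a signalling adaptor, had log2 ratios of 4.94 and 5.42. Map3k14, the kinase that starts the alternative pathway, had 4.39 and 4.93, Rel had 3.26 and 3.88, and the receptor Cd40 had 3.18 and 3.12. Ltbr, a receptor that feeds the alternative pathway, was lower, at 17.0 and 20.9 CPM against 45.2 and 47.9 CPM in macrophages. In Cd209a-positive DC 7 of 12 were at least 2-fold higher and none lower, in pDC 3 of 11 higher and 1 lower, and in cDC1 1 of 10 (Traf1) higher. For comparison, 7.92% of all genes tested were at least 2-fold higher in mature DC, 6.8% in Cd209a-positive DC, 8.23% in pDC and 4.71% in cDC1. The list was drawn up with earlier results of these data known.

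Counted over the regulators, those with at least 50 UMIs over the DC group and macrophages in each library were compared. Of these, 4 of 6 in cDC1 were at least 2-fold above macrophages in both libraries (Irf8, Batf3, Id2 and Flt3), beside 4.71% of 4841 genes. Irf4, Zbtb46, Spib and Runx2 did not reach the minimum. In mature DC, 4 of 6 passed (Irf8, Batf3, Flt3 and Relb), beside 7.92% of 4762 genes. pDC had 5 of 7 above (Irf8, Tcf4, Spib, Relb and Runx2), beside 8.23% of 5056 genes, and 2 of 7 below (Batf3 and Id2), beside 12.9%. Irf4, Zbtb46 and Flt3 did not reach the minimum there. In Cd209a-positive DC, 1 of 5 passed (Relb), beside 6.8% of 5588 genes, and Irf4, Zbtb46, Flt3, Spib and Runx2 did not reach the minimum. No tested regulator was at least 2-fold lower in both libraries in cDC1, Cd209a-positive DC or mature DC, where 15.9%, 10.4% and 19.7% of genes were. The members that passed include those that reached the minimum only through the DC group, so these counts are a description. Relb in pDC was the call nearest the threshold, with log2 ratios of 1.05 (0.26 to 1.76) and 1.45 (0.72 to 2.15), and it was not called without the mixed cells or under 9 of the other 14 settings. Id2 in cDC1 was not called under 7 of 15 settings, among them macrophages with 3 unnamed clusters added, which also lost Relb in pDC. Relb in Cd209a-positive DC was not called under 5 of 15 settings, among them without the mixed cells and from the leading cluster of that group alone. Flt3 in cDC1 and in mature DC was not called without the mixed cells either, where fewer UMIs were left.

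The transcription factors around the 10 regulators were taken from a further list of 23. Of 14 tested in cDC1, 2 were at least 2-fold above macrophages in both libraries, Cbfa2t3, a corepressor (log2 ratios 5.57 and 3.66), and Runx3 (1.58 and 1.07), beside 4.71% of all genes tested, and 3 were below, beside 15.9%. Zeb2, a repressor that opposes the cDC1 fate, was 8.30 and 5.58 CPM in cDC1 against 221 and 217 CPM in macrophages. In pDC 6 of 16 were above, beside 8.23%, and 4 below, beside 12.9%, with Bcl11a, a pDC factor, at 273 and 337 CPM against 0.427 and 4.47 CPM in macrophages. Cd209a-positive DC had 7 of 17 above, led by Bcl11a (6.51 and 4.03) and Cbfa2t3 (5.68 and 3.46), beside 6.8%, and 1 below, beside 10.4%. Mature DC had 3 of 14 above, beside 7.92%, and 5 below, beside 19.7%. Of 6 other IRF genes tested, Irf5 was above in cDC1 (1.68 and 1.67), Irf5 and Irf9 in Cd209a-positive DC, Irf1 and Irf9 in mature DC, and Irf1 in pDC. Among 6 to 8 AP-1 and Batf genes tested per group, Junb in Cd209a-positive DC (1.29 and 1.44) was the one above, Fosb was below in mature DC and Fosl2 in pDC. Of the other E and Id proteins, Tcf12 was below in cDC1 and mature DC. Csf1r, the macrophage growth factor receptor, was below in all 4 DC groups.

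Between the libraries, 25 pairs of a regulator and a DC group had at least 50 UMIs over both libraries. In cDC1, 0 of 4 tested regulators were 2-fold apart, beside 3.91% of 2635 genes. The count was 0 of 6 in mature DC, beside 4.05%, 0 of 7 in pDC, beside 2.96%, and 1 of 8 in Cd209a-positive DC, beside 3.59%. Shares near the background are no result about the regulators. In monocytes 0 of 5 (beside 5.32%), in nonclassical monocytes 1 of 4 (beside 3.71%) and in macrophages 0 of 5 (beside 3.25%) were 2-fold apart. The median log2 ratio of KO over WT of the tested regulators was -0.11 in cDC1, against -0.15 over all genes tested, -0.09 in Cd209a-positive DC, against -0.06, and -0.07 in pDC, against -0.03. It was further from all genes in mature DC (-0.32 against -0.08), monocytes (-0.19 against -0.03), nonclassical monocytes (-0.32 against -0.02) and macrophages (-0.29 against 0.08), each over 4 to 6 regulators.

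The regulators that reached 50 UMIs in cDC1 or pDC differed by less than 2-fold between the libraries, some with intervals that excluded 0. Irf8 had a log2 ratio of KO over WT of -0.05 (-0.18 to 0.07) in cDC1 and -0.19 (-0.30 to -0.08) in pDC. Tcf4 in pDC had -0.07 (-0.29 to 0.15), Spib -0.09 (-0.55 to 0.37) and Runx2 0.43 (0.03 to 0.85). Batf3 in cDC1, whose levels did not overlap between the libraries, had -0.51 (-0.84 to -0.17), Id2 in cDC1 -0.17 (-0.31 to -0.03) and Relb in mature DC -0.32 (-0.59 to -0.05). Id2 in pDC had -0.24 (-0.71 to 0.23), a value that depended on how the group was drawn. It ranged from -3.83 with cells grouped by marker UMIs, where it passed 2-fold, to 0.26 with 20 principal components, and without the mixed cells Id2 was 61.0 against 15.3 CPM from 20 and 7 UMIs, under the minimum. Flt3 ratios lay between 0.04 and 0.36 in the 4 DC groups, and each interval included 0. Relb was higher under the KO label in monocytes, 24.6 against 45.5 CPM, with 0.87 (0.25 to 1.56).

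**Figure D4:**
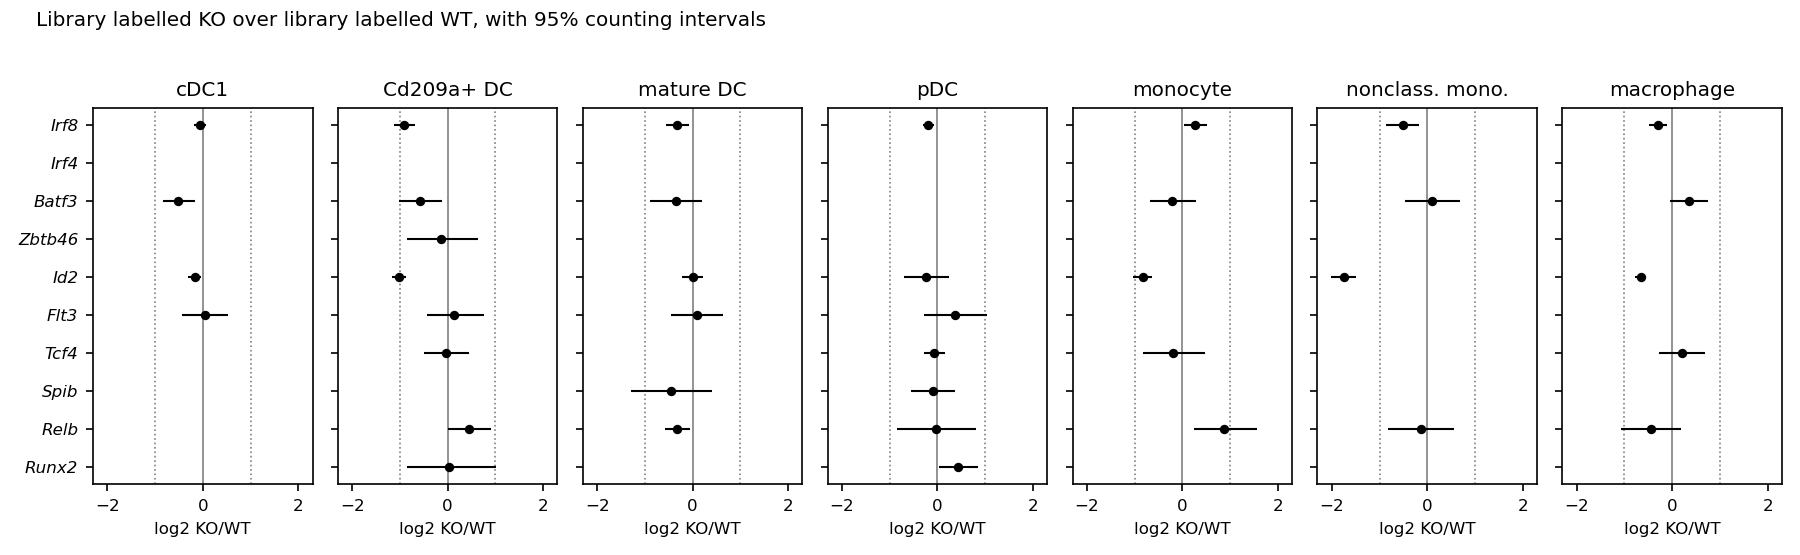
Log2 ratio of the library labelled KO over the library labelled WT for each regulator with at least 50 UMIs over both libraries, in 7 cell groups. Points are ratios of summed UMIs, bars are 95% intervals of counting error, and dotted lines mark 2-fold. Id2 in Cd209a-positive DC and in nonclassical monocytes lay past 2-fold.

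Among the named DC groups, with all cells kept, Cd209a-positive DC held the 1 regulator past 2-fold with at least 50 UMIs. Id2 stood at 714 CPM (663 to 766) under the WT label and 354 CPM (329 to 380) under the KO label, with a log2 ratio of -1.01 (-1.16 to -0.87). Per cell, the median was 6.0 against 3.0 UMIs, and 94.7% against 70.6% of cells held a UMI, or 69.3% against 49.4% after thinning. Irf8 stood at 288 CPM (257 to 322) and 154 CPM (138 to 171), a log2 ratio of -0.91 (-1.13 to -0.68). Cells without an Irf8 UMI numbered 15 of 75 and 79 of 163. The thinned shares with Irf8 were 38.7% and 27.2%. Without the mixed cells Irf8 stood at 205 and 129 CPM. This group was made of 3 clusters held in different proportions by the libraries: the leading one 34 and 114 cells, one with Cd209d and Bcl11a 14 and 32 cells, and one led by Ifitm1, Cxcl9 and Ifi205 27 and 17 cells. Within them Id2 had log2 ratios of -1.14 (-1.35 to -0.93), -1.08 (-1.36 to -0.79) and -0.44 (-0.80 to -0.10). For Irf8 they were -0.42 (-0.91 to 0.11), -1.24 (-1.59 to -0.89) and 0.41 (-0.0037 to 0.83). Id2 was thus lower under the KO label in each of the 3 clusters, while Irf8 had an interval below 0 in 1 of the 3. That was the cluster with Cd209d and Bcl11a, which a first classing named T cell. All 9 Cd209a-positive DC markers were detected in it, with 2 of them among its 10 leading genes. Over the alternatives Id2 ranged from -1.36 to -0.87. Of the 12 able to change its value it was past 2-fold in 4, and Irf8 ranged from -0.94 to -0.32. Batf3 in this group had -0.57 (-1.02 to -0.11). Relb went the other way, with 0.44 (0.0090 to 0.91) over the group and 1.40 (0.55 to 2.50) in the leading cluster, where 11 UMIs under the WT label stood against 94 under the KO label and the ratio passed 2-fold. In this group cDC1 markers summed to 1147 and 805 CPM and mature DC markers to 355 and 285 CPM, while its own markers summed to 2462 and 3298 CPM. T cell markers summed to 577 and 499 CPM in this group, S100a8 stood at 52.1 and 2.76 CPM, and the median depths were 13580 and 12499 UMIs. Their part in the differences was not tested.

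Nonclassical monocytes showed a larger Id2 difference, 792 CPM (728 to 860) against 235 CPM (201 to 274), a log2 ratio of -1.75 (-2.01 to -1.50) that was past 2-fold in each of the 10 alternatives that changed its value. S100a8 differed there in the same direction, 1638 against 237 CPM. Monocytes had an Id2 ratio of -0.83 (-1.04 to -0.63) and macrophages -0.66 (-0.77 to -0.56). The 2 macrophage clusters, held in different proportions by the libraries, had ratios of -0.74 (-0.87 to -0.61) and 0.35 (0.10 to 0.62). Id2 was not lower everywhere. In mature DC the ratio was 0.01 (-0.21 to 0.23) and in NK cells 0.11 (-0.01 to 0.22). Of 17 groups and unnamed clusters, 15 had at least 50 Id2 UMIs, 12 of these were lower under the KO label, 11 with an interval below 0, and none had an interval above 0. The 3 past 2-fold were Cd209a-positive DC, nonclassical monocytes and an unnamed monocyte-branch cluster led by Rsad2 and Cxcl10, at 1599 against 448 CPM. All these values compare 1 library with 1 library, so genotype, tumors, sort and library preparation cannot be told apart.

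**Figure D5:**
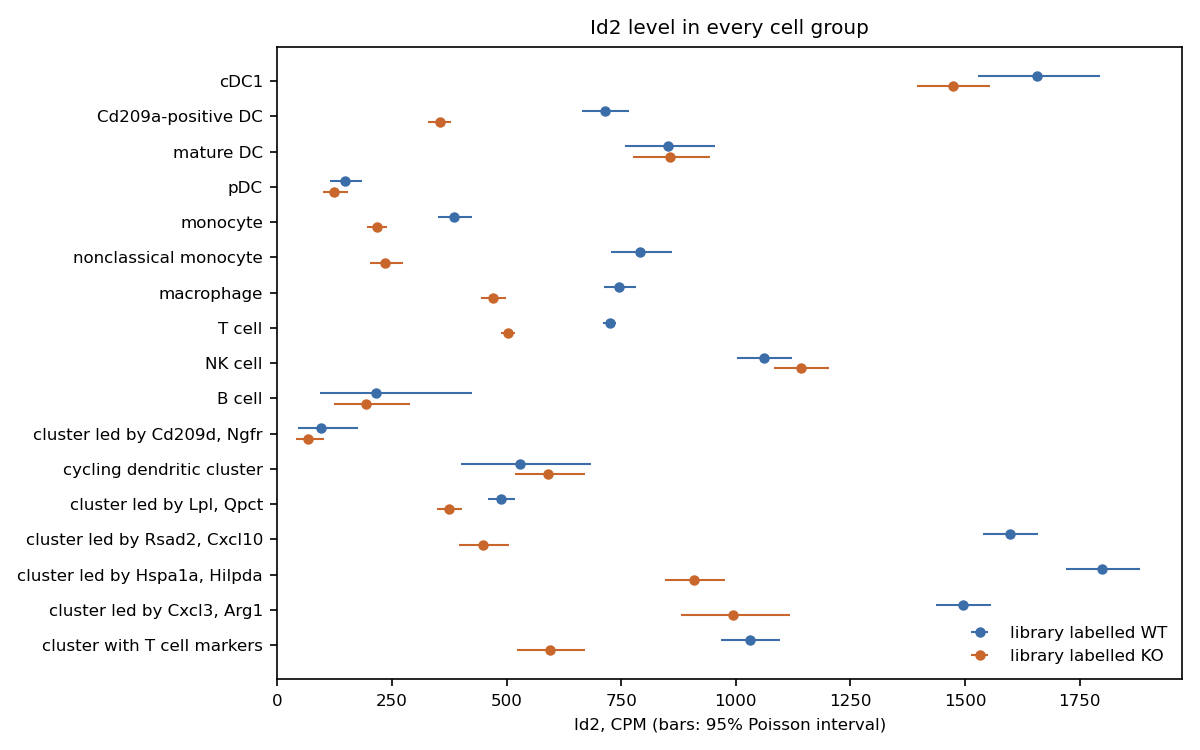
Id2 level in CPM, on a linear axis from 0, in 17 cell groups and unnamed clusters of each library, with 95% Poisson intervals. The library labelled KO lay below the library labelled WT in Cd209a-positive DC, monocytes, macrophages and T cells, and at a like level in mature DC.

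Genes whose levels ran most like each regulator were sought over 34 points, 17 groups and clusters in 2 libraries, among 10487 genes with at least 100 UMIs. The measure was Pearson's r of log2(CPM + 10), given as a description, since the points share libraries and depths. Spib was nearest to Snn (0.93) and Flt3 to Kynu, Syngr2 and Btla (each 0.90). Tcf4 was nearest to Cd300c (0.89), Dnajc7 (0.88) and Ccr9 (0.88), the last a chemokine receptor of pDC. Cd300c and Ccr9 are on the pDC marker list, and Cacnb3, named next, is on the mature DC list. These lists were used to name the groups, so such matches are no separate finding. Relb was nearest to Cacnb3 (0.88), Runx2 to Traf4 (0.86), Batf3 to Ppfibp2 (0.84) and Cst3 (0.83), Zbtb46 to Kctd14 (0.83), Irf8 to Mvb12a (0.80), Id2 to Baiap2 (0.74) and Irf4 to Fam35a (0.73). Among the regulators themselves, Tcf4 and Spib had 0.75, Zbtb46 and Flt3 0.72, Tcf4 and Runx2 0.60, Irf4 and Spib 0.60, Tcf4 and Id2 -0.69, and Irf4 and Id2 -0.63, while Irf8 and Batf3 had 0.31.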

How the data were processed

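Single-cell 3′ RNA-seq of sorted CD45.2+ tumor-infiltrating cells was processed with Cell Ranger on mm10, per the submitters' processing notes. The authors deposited 1 table of genes by cells that holds the natural log of 1 plus UMIs scaled to 10000 per cell, although its name speaks of raw counts. Each cell's smallest nonzero value stood for 1 UMI, which gave whole UMIs (tolerance 0.01) for 100% of nonzero values in 5022 of 5022 cells. Cells were clustered in Seurat 5.3.0 under R 4.3.3 (13 principal components, resolution 0.8, the 10 regulators left out of the variable genes), with DC and the monocyte and macrophage branch clustered again. No cells were removed. A second-round cluster was named where 3 or more markers were detected and 2 or more were among its 10 leading genes, with no other list ahead, and otherwise stayed unnamed. UMIs were summed per group and library. To be counted, a fold needed at least 50 UMIs over the sums compared (ratios printed from fewer UMIs are descriptions), 0.5 UMI was added to each sum in a ratio, and 2-fold was the threshold. TMM and median-of-ratios scaling, planned with count packages, were computed directly in numpy 2.4.6 because the deposited values are not counts. Intervals used scipy 1.17.1 and were tested on simulated data. The genes named are the 10 regulators, up to 4 per related list by the lower of their 2 ratios, and the most alike genes. Regulators and lists were chosen with earlier results of these data known. Gene positions are from GENCODE M21 and promoter windows from RefSeq (GRCm38.p6).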

Additional observations from a re-analysis of the deposited data

How the results depend on the processing

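Of 15 alternatives, 13 were planned and 2 were added after seeing the data (Cd209a-positive DC from their leading cluster alone, and macrophages with 3 unnamed clusters added). The 4 regulators at least 2-fold above macrophages in cDC1 became 2 with cells grouped by marker UMIs and 1 after thinning. They became 3 with the regulators kept for clustering, at a higher resolution and with 20 principal components. The same count was left without mixed cells, with cells weighted alike and with macrophage clusters added. It was 5 at 1.5-fold and with no minimum on UMIs. The 4 in mature DC became 2 after thinning and 8 with no minimum on UMIs. They became 3 with marker UMIs, without mixed cells and without the barcode sequences shared by the libraries. The 5 in pDC became 2 with marker UMIs and 2 after thinning, and gained Irf4 and Flt3 with no minimum. They became 4 with the regulators kept, at a higher resolution, with 20 principal components and without mixed cells. They were also 4 with cells weighted alike, under TMM or median-of-ratios scaling and with macrophage clusters added. The 1 in Cd209a-positive DC became 0 with the regulators kept for clustering, with marker UMIs, without mixed cells, after thinning and from the leading cluster alone, 2 at a lower resolution, at 1.5-fold and with macrophage clusters added, 3 with 20 principal components and 6 with no minimum. The 1 pair 2-fold apart between the libraries became 0 with the regulators kept, at a lower or higher resolution, with 20 principal components, with cells weighted alike, after thinning and under TMM or median-of-ratios scaling, 2 with marker UMIs, at 1.5-fold and from the leading cluster alone, and 6 with no minimum. After thinning, 2 to 3 regulators per DC group reached 50 UMIs beside macrophages, and 3 to 4 between the libraries. The cause of the other moves was not tested. Of the single ratios, 2001 stayed within their counting interval and 249 moved. Scaling moved all genes of a group by over 0.1 on the log2 scale in pDC (0.16 and 0.14 under TMM), cDC1 labelled KO (-0.16) mature DC labelled KO (-0.19) and, by median-of-ratios, macrophages labelled KO (0.10). No paired analysis was possible because each genotype has 1 library, and leaving out a replicate was not possible either. Depth limits Irf4 and Zbtb46, and Spib and Runx2 outside pDC. The median cell held 9887.5 and 6945.5 UMIs in the libraries labelled WT and KO.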

Other observations

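A small unnamed DC cluster, with Cd209d, Cd209a, Ngfr, Cd7 and Bcl11a among its leading genes, held 11 cells of the library labelled WT and 33 of the library labelled KO. Summed over its cells, it held Tcf4 beside Flt3, Irf8 and Irf4, which does not show them in the same cells. Tcf4 stood there at 533 and 176 CPM, Flt3 at 191 and 124 CPM, Irf8 at 762 and 316 CPM and Irf4 at 38.1 CPM (10.4 to 97.6) and 38.3 CPM (19.8 to 66.9). The log2 ratios of KO over WT were -1.60 (-2.17 to -1.04) for Tcf4 and -1.27 (-1.71 to -0.83) for Irf8, from 11 cells in the library labelled WT.

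A cycling DC cluster held 6 and 21 cells. Its Irf8 level was 36.5 CPM, from 4 UMIs, in the library labelled WT and 570 CPM in the library labelled KO, and its Batf3 level was 36.5 and 134 CPM. Among lymphoid cells, NK cells held Irf8 at 629 and 508 CPM and Id2 at 1062 and 1143 CPM, and B cells (7 and 25 cells) held Spib at 323 and 109 CPM, from 12 and 13 UMIs.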
